A study of Mus musculus with 82 samples.

Results

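Transcripts of sodium, calcium and HCN channel subunits and of the leak channel Nalcn were followed across the mouse suprachiasmatic nucleus (SCN), the hypothalamic nucleus that paces daily rhythms. The members were chosen by gene symbol, as every protein-coding gene named Scn followed by a number and a or b, Cacna, Cacnb, Cacng, Hcn followed by a number, or Nalcn. They numbered 45 of the 21933 protein-coding genes listed, and the rule used no measured level, although this gene set was taken up with earlier results of these data known. The samples were 82 hexagons, each at most 40 µm in radius, cut by laser from cresyl violet stained sections of C57BL/6 mice aged 8 weeks and sequenced with Smart-seq2, a full-length method for very small amounts of RNA. No group was treated or mutant. The hexagons fell into 9 sections spaced 48 units apart from 47 to 431 on the anterior-posterior axis, which held 4, 6, 12, 14, 12, 14, 13, 6 and 1 hexagons, and within a section each had a dorsal-ventral coordinate (301 to 917) and a medial-lateral coordinate (1100 to 1517). The labels state neither the coordinates' unit nor which end of an axis is which, and they name no animal, sex or time of collection. Hexagons may therefore share an animal, in which case p-values over hexagons are too small.

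Voltage-gated sodium channels open on depolarization and carry the upstroke of the action potential. Calcium channels let calcium in, and their α2δ and β subunits bring the pore to the membrane and tune its gating. HCN channels open on hyperpolarization, and Nalcn is a leak channel for sodium. SCN neurons fire spontaneously, by day more than by night, and sodium leak, calcium current and HCN current have all been studied as parts of that firing.

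Library totals ran from 11905 to 2843366 counts (median 542267.5), and 5 libraries lay below the median divided by 3. Across the 82 hexagons, Pearson's r of the logarithms of totals and of genes detected with each coordinate lay between 0.028 and 0.133. Depth still differed between sections, with 14788254 counts in the 12 hexagons of section 143 and 4617726 in the 12 of section 239. The summed level of 14 SCN neuron markers, among them Vip, Nms and Gad1, ran from 1542 to 22916 CPM over the hexagons. Gad1 was detected in all 82 hexagons, Nms in 81 and Vip in 62. Of 2 glutamatergic neuron markers, Slc17a6 was detected in 29 hexagons, at up to 234.6 CPM, and Slc17a7 was at 0 in all. The summed level of 8 oligodendrocyte markers ranged from 0 to 23331 CPM. Exons of 12 members overlap another annotated gene, 11 of them on the opposite strand, and reads there cannot be assigned with certainty because the method does not mark strand. In tissue pieces of many cells, fewer cells of a type and less RNA per cell cannot be told apart.

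Levels between genes are given here as RPKM, counts scaled to gene length and library size. Of the 45 members, 22 were detected in 80 or more hexagons, and 35 had enough counts to be tested. Scn2b, the sodium channel β2 subunit that tethers the pore to adhesion molecules, stood far above the rest at 93.8 ± 33.5 RPKM (SD, n = 82). It was higher than the next member, Cacng5, in 80 of 82 hexagons. From Cacng5 (24.7 ± 19.6 RPKM) downward through Nalcn, Scn2a, Scn3b, Scn9a and Cacna1e (18.4 ± 6.63 RPKM), each member differed from the next in the order by less than the SD of their difference across hexagons.

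Among the sodium channel pores, Scn2a (21.01 ± 6.08 RPKM), which encodes NaV1.2, and Scn9a (19.96 ± 7.96 RPKM), which encodes the peripheral pain channel NaV1.7, were the 2 leaders. Scn2a was the highest α subunit in 40 hexagons and Scn9a in 33. Scn3a, the NaV1.3 gene known for its high expression before birth, followed at 13.7 ± 6.58 RPKM and was detected in all 82 hexagons. Scn1a, the NaV1.1 gene of fast-spiking neurons, and Scn8a, the NaV1.6 gene, were lower, at 6.78 ± 6.74 and 5.10 ± 3.05 RPKM. Scn7a, Scn10a, Scn4a and Scn11a each had under 100 counts over all hexagons. Of the β subunits, Scn3b had 20.8 ± 9.10 RPKM, and Scn4b had counts in 6 hexagons.

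Cacna1e, which encodes the R-type pore CaV2.3, led the high-voltage-activated calcium channels and was the highest of them in 68 of 82 hexagons. The N-type gene Cacna1b (9.68 ± 4.24 RPKM), the L-type gene Cacna1d (7.41 ± 4.33), the P/Q-type gene Cacna1a (4.71 ± 2.77) and the L-type gene Cacna1c (3.63 ± 2.17 RPKM) followed. The retinal Cacna1f and the muscle Cacna1s were too sparse to test. Of the low-voltage-activated T-type genes, Cacna1g (11.9 ± 5.85 RPKM) made up 78.1% of the family's RPKM on average, and Cacna1i (2.55 ± 2.18) and Cacna1h (0.466 ± 0.671 RPKM) were minor.

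The auxiliary calcium subunits were less unequal. Cacna2d3 and Cacna2d1 shared the lead of the α2δ genes, at 14.9 ± 10.02 and 14.2 ± 9.76 RPKM, Cacna2d2 had 7.51 ± 5.15 and Cacna2d4 1.39 ± 1.93 RPKM. The 4 β genes lay between 6.15 ± 3.67 RPKM for Cacnb2 and 8.396 ± 5.99 RPKM for Cacnb3, with mean shares of the family from 21.4% to 27.5%. Among the γ genes, several of which are better known as AMPA receptor partners, Cacng5 was the highest in 60 of 82 hexagons. Cacng6 had 0 of 60993812 counts, which allows up to 0.0492 CPM when 3 counts are taken as the floor. Such limits cover counting error only.

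Of the pacemaker channel genes, Hcn2 had 7.23 ± 5.49, Hcn3 5.85 ± 4.15 and Hcn4 3.70 ± 3.30 RPKM. The leading HCN gene changed from hexagon to hexagon, being Hcn2 in 31, Hcn3 in 15 and Hcn4 in 8. Nalcn had 22.2 ± 7.89 RPKM and a range from 0 to 43.6. Its only value of 0 was in the shallowest library.

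**Figure D1:**
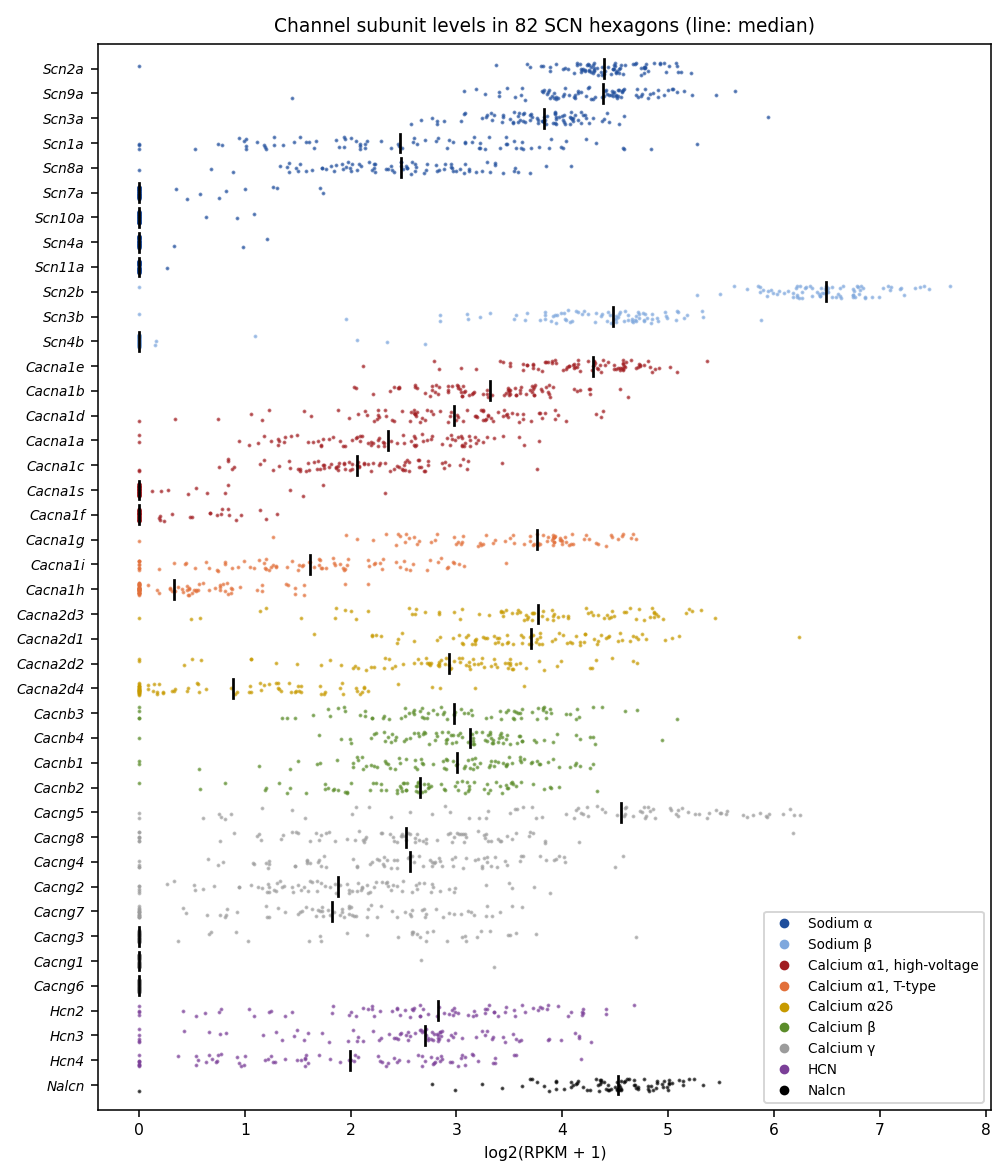
Level of each member reported here as log2(RPKM + 1) on the horizontal axis, 1 point for each of the 82 hexagons, rows grouped and coloured by family, with a vertical line at the median. Scn2b lies to the right of all other members, and Scn2a and Nalcn form narrow clouds while Cacna2d3, Scn1a and Cacng5 are spread widely.

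A pair of libraries held many of the highest values. The shallowest, section 191 replicate 4, with 11905 counts, gave the highest RPKM of 6 members although 25 of the 35 tested members were at 0 there. Its 74.5 RPKM of Cacna2d1 rests on 11 counts. Section 335 replicate 12, with 1055026 counts, gave the highest values of another 6 members, among them Scn4b, Hcn2, Cacnb4, Cacng4 and Cacng7. It held 3.05 CPM of the SCN peptide gene Nms, against a median of 134 CPM over all hexagons, and 3077 CPM of the myelin gene Mbp, against a median of 660 CPM. Without the 5 low-depth libraries, which include the shallowest, the members called on the 3 axes below were the same 3, 2 and 1.

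Position was tested with edgeR's quasi-likelihood test over 11469 genes, with Benjamini-Hochberg adjustment over all of them. Dorsal-ventral and medial-lateral slopes come from 1 model of all hexagons with section as a factor, and anterior-posterior slopes from counts summed within each of the 8 sections with 4 or more hexagons. Slopes are in log2 units per 100 units of coordinate and are given with a standard error (SE). Along the dorsal-ventral axis 3 of 35 members passed the threshold of 0.05, all higher at higher coordinates, where 0.506% of all tested genes were called higher and 0.288% lower, 0.793% in either direction. Along the medial-lateral axis 1 was higher and 1 lower, against 0.820% and 0.558% of all tested genes and 1.38% in either direction. Along the anterior-posterior axis 1 member was lower and none higher, against 0.131% and 0.113% and 0.244% in either direction.

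**Figure D2:**
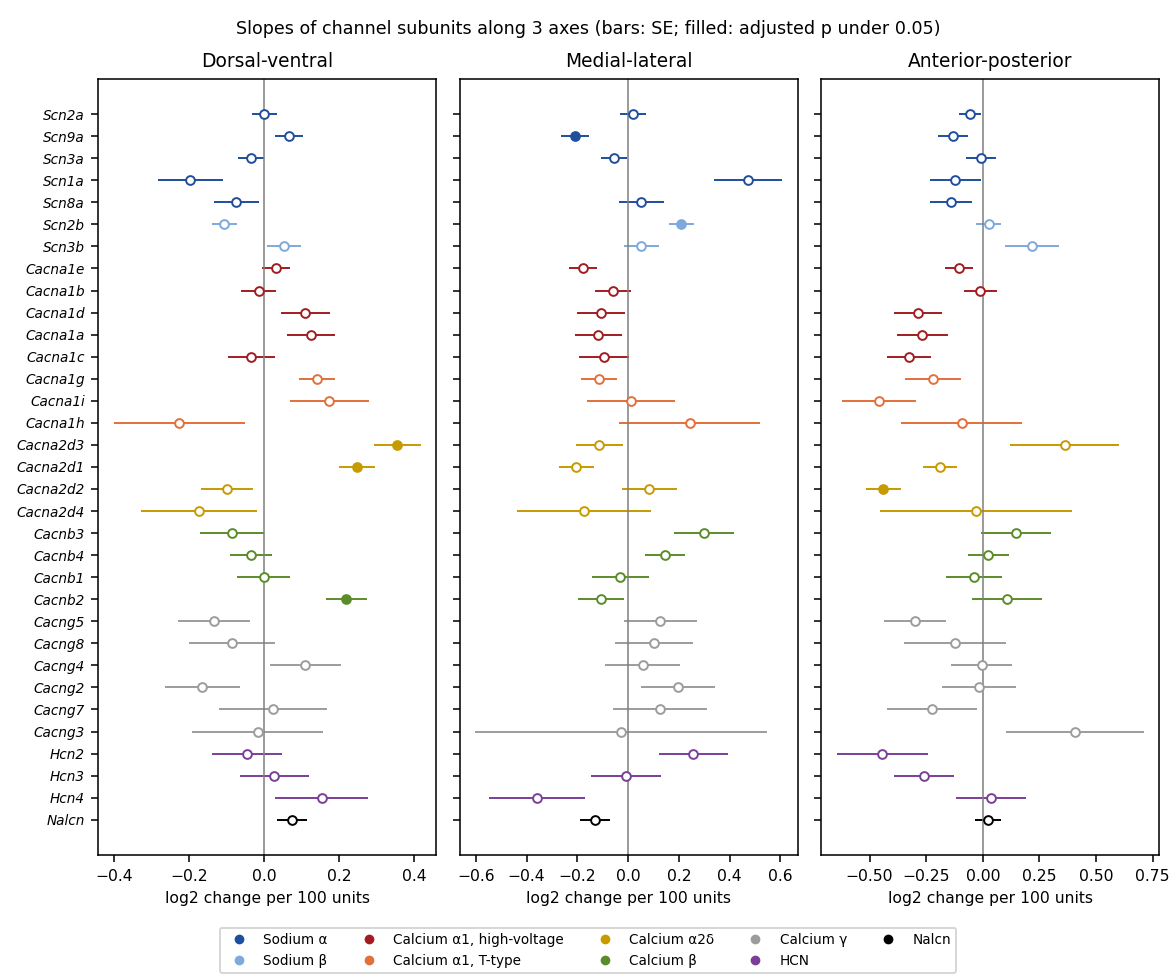
Slope of each tested member reported here along the 3 axes, as log2 change per 100 coordinate units with bars of 1 SE, coloured by family, filled where the adjusted p is under 0.05. Filled points are Cacna2d3, Cacna2d1 and Cacnb2 on the dorsal-ventral axis, Scn2b and Scn9a on the medial-lateral axis and Cacna2d2 on the anterior-posterior axis.

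Cacna2d3, Cacna2d1 and Cacnb2, 3 of the 14 tested auxiliary calcium channel subunits, rose with the dorsal-ventral coordinate, and no pore-forming subunit passed the test. Cacna2d3 encodes α2δ-3, known for roles in hearing and pain. Dividing the hexagons by coordinate into 3 near-equal groups, its RPKM had a lowest, median and highest value of 0, 9.78 and 24.9 in the low group (n = 28), 0.406, 13.95 and 38.8 in the middle group (n = 27) and 3.47, 20.7 and 42.6 in the high group (n = 27). The groups overlapped, but 24 of the 27 high hexagons exceeded the median of the low group, and 8 exceeded its highest value. The slope was 0.35 (SE 0.06, edgeR adjusted p = 0.000152, over hexagons that may share an animal). Slopes were also fitted within each section on log2 values, against the named coordinate alone and without a test. These within-section slopes describe sign only, here and below. For Cacna2d3 they were positive in 8 of 8 sections.

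Cacna2d1 encodes α2δ-1, the binding site of gabapentin. Its RPKM had a lowest, median and highest value of 3.61, 8.98 and 74.5 in the low group, 2.15, 12.5 and 33.3 in the middle group and 8.06, 18.7 and 31.9 in the high group. The 74.5 is the shallowest library, and 26 of the 27 high hexagons exceeded the low group's median. Its slope was 0.25 (SE 0.05, edgeR adjusted p = 0.000938), and its within-section slopes were again positive in 8 of 8 sections. Cacna2d1 and Cacna2d3 kept their calls under all 22 alternatives of the fit, in which the 2 slopes ranged from 0.20 to 0.29 and from 0.31 to 0.40.

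Cacnb2 encodes a β subunit that traffics the pore to the membrane. Its RPKM averaged 5.07 ± 3.37 in the low group, 5.86 ± 3.93 in the middle group and 7.56 ± 3.36 in the high group, with much overlap. The slope was 0.22 (SE 0.06, edgeR adjusted p = 0.0251), and the within-section slopes were positive in 7 of 8 sections. The call was lost in 7 of 22 alternatives, with adjusted p up to 0.158, among them the fit with library set as a further factor (0.0729). Exons of Cacnb2 overlap 3 genes on the opposite strand.

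The other α2δ genes did not pass on this axis. Cacna2d2 averaged 6.89 ± 4.91 RPKM in the low group, 8.54 ± 5.42 in the middle group and 7.13 ± 5.15 in the high group, and its slope was -0.10 (SE 0.07, edgeR adjusted p = 0.811). Among pores, the T-type gene Cacna1g had the smallest adjusted p, 0.211, with a slope of 0.14 (SE 0.05). The sodium β gene Scn2b had a negative slope, -0.11 (SE 0.03, edgeR adjusted p = 0.121). It was called lower by DESeq2, and by edgeR with library size alone and with no filter on low counts, 3 of 22 alternatives. Over all members 17 slopes were positive and 18 negative, with a median of -0.0011, beside 0.0026 over all tested genes. Of the markers of other cells, Vip was the 1 called gene of the 14 SCN neuron markers and Hbb-bt the 1 called erythrocyte gene, both higher. Oligodendrocyte markers had 8 of 8 positive slopes, none called. Their part in these results was not tested.

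**Figure D3:**
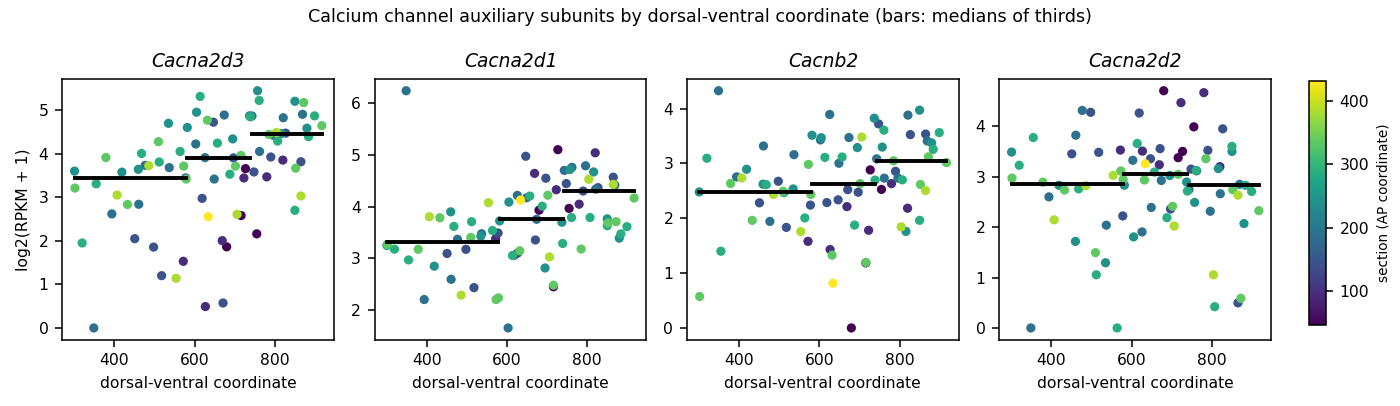
Level of Cacna2d3, Cacna2d1, Cacnb2 and Cacna2d2 as log2(RPKM + 1) against the dorsal-ventral coordinate, 1 point per hexagon coloured by anterior-posterior coordinate, with bars at the medians of the low, middle and high groups. The bars climb for the first 3 genes and differ little for Cacna2d2.

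An α2δ gene passed on the anterior-posterior axis, as did 2 on the dorsal-ventral axis beside Cacnb2, so the promoters of these 3 α2δ genes are shown, from 250 bases before to 50 after the RefSeq gene start, on build GRCm38.p6. They are Cacna2d3 at chr14:29721815-29722114 on the minus strand, Cacna2d1 at chr5:15934441-15934740 on the plus strand and Cacna2d2 at chr9:107399630-107399929 on the plus strand. Sequences run 5′ to 3′ and capitals mark CG dinucleotides.
Cacna2d3: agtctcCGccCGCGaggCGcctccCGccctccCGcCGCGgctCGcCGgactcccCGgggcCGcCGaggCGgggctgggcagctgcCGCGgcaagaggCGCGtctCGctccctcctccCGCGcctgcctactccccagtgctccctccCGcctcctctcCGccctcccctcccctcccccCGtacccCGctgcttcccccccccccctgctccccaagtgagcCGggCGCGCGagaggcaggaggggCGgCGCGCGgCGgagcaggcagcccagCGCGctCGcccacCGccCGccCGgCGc
Cacna2d1: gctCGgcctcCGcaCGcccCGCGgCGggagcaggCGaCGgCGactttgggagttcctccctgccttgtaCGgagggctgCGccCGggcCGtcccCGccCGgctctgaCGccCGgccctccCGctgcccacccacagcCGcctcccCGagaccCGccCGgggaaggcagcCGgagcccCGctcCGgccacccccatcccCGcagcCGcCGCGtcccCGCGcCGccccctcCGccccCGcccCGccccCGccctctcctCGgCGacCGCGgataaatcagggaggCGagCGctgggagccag
Cacna2d2: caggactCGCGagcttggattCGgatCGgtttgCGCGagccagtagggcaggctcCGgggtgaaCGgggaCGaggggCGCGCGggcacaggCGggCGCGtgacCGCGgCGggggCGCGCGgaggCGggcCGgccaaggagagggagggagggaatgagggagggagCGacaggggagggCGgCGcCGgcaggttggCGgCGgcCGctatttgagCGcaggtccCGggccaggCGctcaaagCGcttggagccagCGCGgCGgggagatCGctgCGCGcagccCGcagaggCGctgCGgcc
All 3 are dense in CG, with 41, 42 and 43 CG dinucleotides in the order printed, against a median of 7 over 32851 RefSeq promoters of this length. Their GC contents lie between 75.7% and 81.3%, against a median of 52.7%. The 2 α2δ genes that rose along the dorsal-ventral axis thus had CG counts close to that of Cacna2d2. Cacnb2, which also rose, has 2 RefSeq starts, whose promoters hold 35 and 4 CG dinucleotides.

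Of the 8 tested sodium channel subunits, Scn2b rose with the medial-lateral coordinate and Scn9a fell. Scn2b had a lowest, median and highest RPKM of 0, 78.6 and 115 in the low group (n = 28), 52.6, 85.9 and 170 in the middle group (n = 26) and 37.7, 108 and 202 in the high group (n = 28). The 0 is the shallowest library. Of the 28 high hexagons 22 exceeded the low group's median and 10 its highest value. The slope was 0.21 (SE 0.05, edgeR adjusted p = 0.0107, over hexagons that may share an animal). Untested within-section slopes, against the medial-lateral coordinate alone, were positive in 7 of 8 sections.

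Scn9a had a lowest, median and highest RPKM of 14.2, 21.5 and 48.5 in the low group, 8.06, 15.5 and 34.5 in the middle group and 1.72, 16.4 and 31.8 in the high group. The middle and high groups had similar medians, and 8 of the 28 high hexagons exceeded the low group's median. The slope was -0.21 (SE 0.06, edgeR adjusted p = 0.0343), and the untested within-section slopes were negative in 8 of 8 sections. Without section 335 replicate 12 the slope was -0.20 and the adjusted p 0.0572. Without section 335 replicate 11, which held the lowest Scn9a value of all, they were -0.20 and 0.0245. An exon of Scn9a overlaps the antisense gene Gm13629.

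Scn1a had the largest medial-lateral slope of any member, 0.47 (SE 0.14), with an edgeR adjusted p of 0.0546 that missed the threshold. Its RPKM had a lowest, median and highest value of 0, 2.11 and 37.7 in the low group, 0.678, 4.18 and 17.7 in the middle group and 1.17, 8.35 and 27.6 in the high group. The 37.7 rests on 5 counts of the shallowest library. Of the 28 high hexagons 27 exceeded the low group's median, and the untested within-section slopes were positive in 8 of 8 sections. Scn2a, next to Scn1a in the sodium channel cluster of chromosome 2, had a medial-lateral slope near 0, at 0.02 (SE 0.05, edgeR adjusted p = 0.940).

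By edgeR 2 members were called along this axis, and 8 of 35 had an unadjusted p under 0.05, beside 1342 of the 11469 tested genes. Without section 335 the members called were 0 (7 at unadjusted p under 0.05), and calls over all tested genes fell from 158 to 31. Without the dorsal-ventral coordinate in the model they were also 0 (5 at unadjusted p under 0.05), and calls over all tested genes fell to 68. With library set as a further factor neither Scn2b (0.23, adjusted p = 0.0862) nor Scn9a (-0.25, adjusted p = 0.139) was called, and Cacna2d1 was (-0.39, adjusted p = 0.0295). Over all tested genes, edgeR calls on this axis fell from 158 to 14 with set in the model. Sections 191, 239, 287 and 335 hold hexagons of different sets, which divide along the medial-lateral coordinate. Set and medial-lateral position can therefore not be fully told apart. DESeq2 called 4 members, Scn2b and Scn1a higher and Scn9a and Cacna1e lower, beside 352 of the 11469 tested genes. It gave no adjusted p to 3336 of the 11469.

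All 5 tested high-voltage-activated α1 genes had negative medial-lateral slopes, from -0.18 for Cacna1e (SE 0.05, edgeR adjusted p = 0.0807) to -0.06 for Cacna1b, and none passed the test. The 3 tested sodium β genes had positive ones. Over all members 18 of 35 slopes were negative, with a median of -0.0085, beside -0.0044 over all tested genes. Among the 1527 tested genes of at least 9478 bases, the median length of tested members, 58.2% of slopes were negative (median -0.025). Over all tested genes 51.3% were. Along the same axis, markers of SCN neurons had 12 of 14 slopes negative, with Rgs16, Zfhx3, Six3 and Rorb called lower, and astrocyte and oligodendrocyte markers each had 8 of 8 positive, with S100b called. Both tested markers of meningeal fibroblasts, Slc6a13 and Dcn, were called lower, with a median slope of -1.94. The summed oligodendrocyte level had medians of 1523, 821 and 1886 CPM in the low, middle and high groups, that of astrocytes 3270, 3235 and 3823 CPM, and that of 4 meningeal fibroblast markers 6.25, 0 and 0 CPM. Their part in the sodium channel slopes was not tested.

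**Figure D4:**
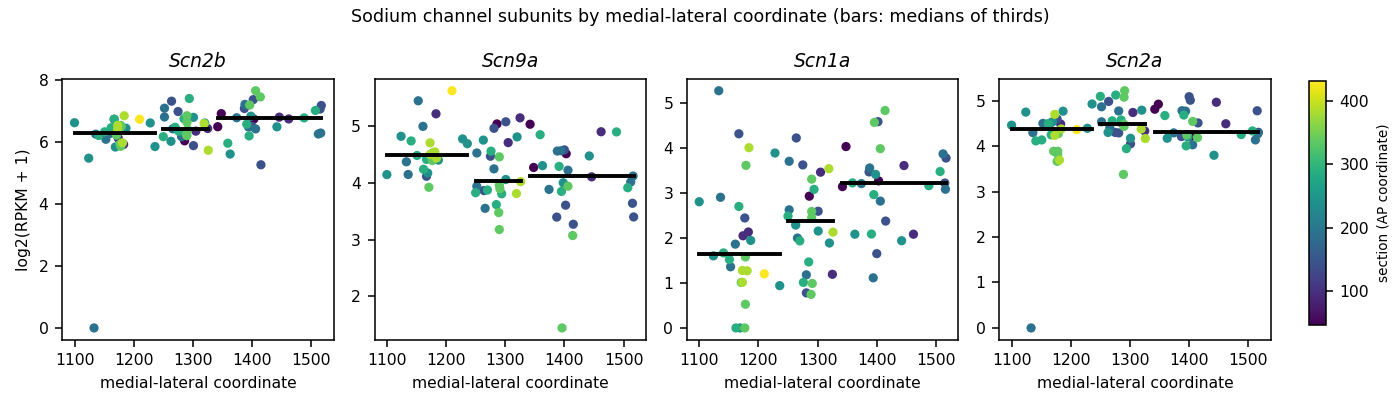
Level of Scn2b, Scn9a, Scn1a and Scn2a as log2(RPKM + 1) against the medial-lateral coordinate, 1 point per hexagon coloured by anterior-posterior coordinate, with bars at the medians of the low, middle and high groups. Scn2b and Scn1a step up, Scn9a is highest in the low group, and the bars of Scn2a lie close together.

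The promoters of these 3 sodium channel genes are printed because their medial-lateral slopes differ in sign. They are Scn2b at chr9:45117626-45117925 on the plus strand, Scn9a at chr2:66634913-66635212 on the minus strand and Scn1a at chr2:66440788-66441087 on the minus strand, from RefSeq on GRCm38.p6, with CG in capitals.
Scn2b: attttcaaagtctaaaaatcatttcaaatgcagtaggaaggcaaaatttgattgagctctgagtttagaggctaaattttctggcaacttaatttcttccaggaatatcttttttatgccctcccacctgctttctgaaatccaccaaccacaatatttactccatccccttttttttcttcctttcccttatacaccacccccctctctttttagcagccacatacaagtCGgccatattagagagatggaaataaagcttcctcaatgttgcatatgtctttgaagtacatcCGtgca
Scn9a: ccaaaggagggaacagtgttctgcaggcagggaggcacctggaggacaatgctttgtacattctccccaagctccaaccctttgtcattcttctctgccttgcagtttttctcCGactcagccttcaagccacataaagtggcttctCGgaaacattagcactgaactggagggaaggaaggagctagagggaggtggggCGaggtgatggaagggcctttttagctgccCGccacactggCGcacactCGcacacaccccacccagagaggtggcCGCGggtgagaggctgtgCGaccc
Scn1a: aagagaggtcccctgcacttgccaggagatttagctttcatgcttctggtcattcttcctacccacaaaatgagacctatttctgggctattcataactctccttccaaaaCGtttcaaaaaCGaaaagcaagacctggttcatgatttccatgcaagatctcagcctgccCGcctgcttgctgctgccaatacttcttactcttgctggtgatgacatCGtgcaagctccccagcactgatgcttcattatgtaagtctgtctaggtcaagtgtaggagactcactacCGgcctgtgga
They hold 2, 9 and 5 CG dinucleotides in the order printed, far fewer than the α2δ promoters. The D-box sequence TTATGTAA occurs across the gene start in the Scn1a promoter, in 1 of 44 promoters of the 33 members matched, and in 0.938% of all promoters. The E-box CACGTG occurs in 0 of the 44, against 7.15% of all, and the cyclic AMP response element TGACGTCA in 0, against 1.79%. AGGTCA, a sequence bound by nuclear receptors, occurs in 5 of the 44 (11.4%), those of Scn1a, Scn8a, Cacng8, Hcn2 and Cacna1f, against 16.3% of all. Both strands were searched for exact matches, none of the 4 sequences contains another, and a match is a description of letters only.

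Along the anterior-posterior axis 1 member passed. Cacna2d2, the α2δ-2 gene that is mutated in the ducky mouse, fell with the coordinate. The 4 hexagons of section 47 had 9.41, 10.4, 14.9 and 25.2 RPKM, and the 6 hexagons of section 383 had 1.08, 3.06, 3.43, 5.22, 6.08 and 7.16 RPKM. These end sections did not overlap. From counts summed per section, sections 47 to 383 in order had 13.9, 12.6, 10.3, 7.68, 6.19, 7.204, 5.72 and 4.81 RPKM. The lone hexagon of section 431, which was not in the fit, had 8.58.

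The slope of Cacna2d2 was -0.44 (SE 0.08, edgeR adjusted p = 0.0254, over 8 sections that may share an animal). It stayed between -0.49 and -0.39 under 20 alternatives, but the call was lost without any of sections 47, 95, 143, 191, 287 and 335 and without section 47 replicate 3, with adjusted p from 0.0511 to 0.107. Library sets follow the sections, so set and anterior-posterior position cannot be told apart in this fit. An exon of Cacna2d2 overlaps the antisense gene Gm17141 by 82 bases. Along the same sections, markers of SCN neurons had 10 of 14 slopes positive, with Rgs16 called higher. Slopes were also positive for 8 of 8 oligodendrocyte markers (median 0.37) and 4 of 4 erythrocyte markers (median 0.54), with none called. Their part in the Cacna2d2 slope was not tested.

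The other α2δ genes ran differently along the sections. Cacna2d3 from summed counts had 7.11, 5.96, 10.1, 18.7, 23.6, 21.6, 16.4 and 7.69 RPKM in sections 47 to 383, with its peak at section 239. A straight slope does not describe such a course, and it was 0.36 (SE 0.24, edgeR adjusted p = 0.504). Cacna2d1 had 20.7, 17.9, 14.8, 13.6, 11.8, 10.8, 9.82 and 15.5 RPKM, lowest at section 335 (slope -0.19, SE 0.07, adjusted p = 0.225). Without section 383 Cacna2d1 was called lower along this axis, with Cacna2d2 and Cacng5.

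The make-up of the α2δ family also varied along the sections. Cacna2d3 took 16.0% ± 9.31 of the family's RPKM in section 47 (SD, n = 4), 52.1% ± 11.5 in section 239 (n = 12) and 31.7% ± 18.2 in section 383 (n = 6). Cacna2d2 took 43.2% ± 17.4, 13.9% ± 8.80 and 17.7% ± 9.43 in the same sections, and Cacna2d1 40.4% ± 15.6, 28.9% ± 7.85 and 48.0% ± 16.7. Cacna2d3 was the highest α2δ gene in none of the 10 hexagons of sections 47 and 95 and in 10 of 12 of section 239. The pattern was noticed in the data and was not tested as a peak.

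**Figure D5:**
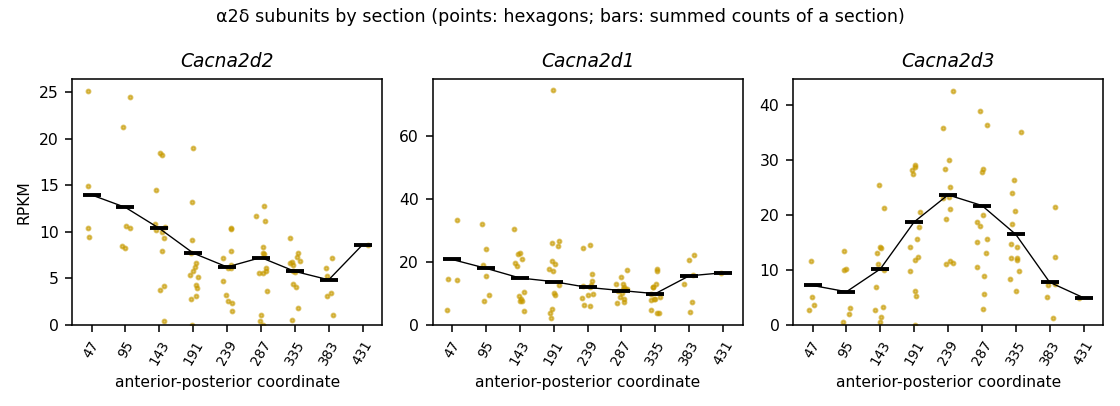
RPKM of Cacna2d2, Cacna2d1 and Cacna2d3 by section, ordered by anterior-posterior coordinate, with 1 point per hexagon and a bar for the RPKM of the section's summed counts, joined by a line. Cacna2d2 falls towards higher coordinates, Cacna2d1 is lowest at section 335, and Cacna2d3 is highest at section 239.

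By edgeR on the section sums no pore-forming gene passed along this axis. All 8 tested Cacna1 genes and all 5 tested sodium α genes had negative slopes, while Hcn4 (0.04) and Nalcn (0.02) did not, and 25 of 35 members did (71.4%, median -0.09), beside 48.8% of all tested genes (median 0.01). Channel genes are long, however, and among the 1527 tested genes at least as long as the median tested member, 9478 bases, 67.6% were negative (median -0.07), near the members' share. The lowest adjusted p among pores was 0.132, for Cacna1c (slope -0.33, SE 0.10, edgeR). By edgeR 7 of 35 members had an unadjusted p under 0.05, beside 1912 of the 11469 tested genes. Steeper but not called were Cacna1i (-0.457, SE 0.16, edgeR adjusted p = 0.182) and Hcn2 (-0.443, SE 0.20, adjusted p = 0.286), beside -0.439 for the called Cacna2d2. DESeq2 on the section sums called Cacna1c with Cacna2d2, 2 of 35 members, beside 448 of the 11469 tested genes, where edgeR called 28. With hexagons as units, Cacna1c (-0.41) was 1 of 3 members called, beside 337 of all tested genes, but hexagons of 1 section share its coordinate. The 3 tested sodium β genes had positive slopes, 0.22 for Scn3b (SE 0.12, edgeR adjusted p = 0.373) among them.

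A test of 5 terms together, the 2 within-section coordinates, their squares and their product, can detect peaks and troughs that a slope misses. It called 5 of 35 members, against 2.03% of all tested genes. They were Cacna2d3 (edgeR adjusted p = 0.000254), Cacna2d1 (0.000561), Scn2b (0.0029), Scn1a (0.0200) and Cacna1e (0.0373), over hexagons that may share an animal. The first 3 were called in all 21 alternatives, Scn1a was lost in 4 and Cacna1e in 6. By edgeR with the main settings Scn1a and Cacna1e passed here and not by slope, but DESeq2 called both by medial-lateral slope. The 5 terms include both slopes, and the squares and product were not tested alone, so no peak or trough is shown.

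Hcn2, Hcn3, Hcn4 and Nalcn passed on no axis in these fits, nor with DESeq2. On the medial-lateral axis the slope of Hcn4 was -0.36 (SE 0.19, edgeR adjusted p = 0.467) and that of Hcn2 0.26 (SE 0.14, adjusted p = 0.470), so these slopes had opposite signs. Hcn2 averaged 9.99 ± 5.97 RPKM in the high group, against 5.41 ± 5.01 in the low group, and Hcn4 averaged 2.66 ± 2.54 in the high group, against 4.05 ± 3.37 in the low group. Of the 28 high hexagons 22 exceeded the low group's median of Hcn2 and 9 that of Hcn4. Untested within-section slopes, against the medial-lateral coordinate alone, were positive in 7 of 8 sections for Hcn2 and negative in 6 of 8 for Hcn4.

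Nalcn had slopes of 0.07 (SE 0.04, edgeR adjusted p = 0.625) on the dorsal-ventral axis, -0.13 (SE 0.06, 0.335) on the medial-lateral axis and 0.02 (SE 0.06, 0.876) on the anterior-posterior axis. Its section sums lay between 17.7 RPKM in section 335 and 25.02 in section 191. With all sections, the γ subunits passed on no axis either, by edgeR or by DESeq2, and had no unadjusted p under 0.05 by edgeR. Cacng5, the most abundant, had dorsal-ventral, medial-lateral and anterior-posterior slopes of -0.13 (SE 0.10), 0.13 (SE 0.14) and -0.30 (SE 0.14).

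Of 30 genes whose products bind, anchor or regulate these channels, 24 were tested. Calm2, a calmodulin gene, rose along the medial-lateral axis by 0.09 per 100 units (SE 0.03, edgeR adjusted p = 0.0322). By edgeR no partner was called on that axis without section 143, 239, 287 or 335 (4, 5, 4 and 5 at unadjusted p under 0.05, in that order). The same held with library set as a further factor (4 at unadjusted p under 0.05), without the low-depth libraries (5) and without section 335 replicate 12 alone (5). In the main edgeR fit 5 partners had an unadjusted p under 0.05 on that axis, beside 1342 of the 11469 tested genes. DESeq2 on all libraries called 2 partners, beside 352 of all tested genes. By edgeR no partner passed on the dorsal-ventral axis (3 at unadjusted p under 0.05, and 0 called by DESeq2) or the anterior-posterior axis (8 at unadjusted p under 0.05, and 3 called by DESeq2). Over all 11469 tested genes, 970 and 1912 had an unadjusted p under 0.05 by edgeR on these axes, in that order. DESeq2 called 154 and 448 of them. Unc79, Unc80 and Fam155a, subunits of the Nalcn complex, and Pex5l, which traffics HCN channels, were among those that did not pass on any axis.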

How the data were processed

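RNA from 82 hexagons was profiled by Smart-seq2. The authors deposited whole-number counts for 27515 genes and RPKM for 27055, with each gene's length. The RPKM equal those counts divided by length and library total, so they are not independent of them. Per the submitters' processing notes, bcl2fastq 2, STAR and the build GRCm38 were used. Counter, strand setting and annotation were not given in the sources used here. Members were found by symbol alone, but the choice of this gene set, its rule and the gene lists was made with earlier results of these data known. The 11469 genes reaching 10 counts in at least 10 libraries were fitted with edgeR 4.0.16 in R 4.3.3 (TMM, robust quasi-likelihood, Benjamini-Hochberg), and DESeq2 1.42.0 served as an alternative. The within-section model holds section and both coordinates, and the anterior-posterior model holds counts summed per section, without section 431. SE is the absolute slope divided by the root of its F statistic. The biological coefficient of variation was 0.73 for hexagons and 0.306 for section sums. Named are called members, tested pores, the leading auxiliary member of each family and the largest slopes per axis, plus partners that were called or complete a complex. Gene overlaps come from GENCODE M21 on GRCm38. The first letter of each description label was read as a library set, an inference, giving 8 sets. The fits were tested on simulated data. Some genes are not reported here.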

Additional observations from a re-analysis of the deposited data

Results flagged for a closer look

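Hexagons standing apart within a section were looked for in 8 members and in the 3 sections of 4 to 10 hexagons, 24 groups in all, by Dixon's gap test. In 0 of them did the highest or lowest hexagon stand beyond the critical value, where chance gives about 1 in 20.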

How the results depend on the processing

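Counts of members called changed by more than 1.5 times under these settings. With no filter on low counts they were 6 for the dorsal-ventral slope, 5 for the medial-lateral slope and 12 for the 5 terms. Of all 21396 genes then fitted, 799, 912 and 3538 were called, in that order. Some of the added members, such as Scn10a, had under 20 counts in all. With DESeq2 the members called were 4 (medial-lateral), 2 (anterior-posterior) and 8 (5 terms), beside 352, 448 and 392 of the 11469 tested genes. With library set as a further factor they were 1 (medial-lateral) and 3 (5 terms), beside 14 and 140 of all tested genes. Without the other coordinate in the model the medial-lateral count was 0 (5 at unadjusted p under 0.05, edgeR), beside 68 of all tested genes. With hexagons as units the anterior-posterior count was 3, beside 337 of all tested genes. Leaving out 1 section or hexagon gave 2 to 3 (dorsal-ventral), 0 to 3 (medial-lateral), 0 to 3 (anterior-posterior) and 3 to 6 members (5 terms). Leaving out section 335 replicate 12, an alternative chosen after seeing the data like that without replicate 11, gave 1 for the medial-lateral axis. Of 581 values of single members under alternatives, 541 kept direction and side of the threshold or moved by under 1 SD, 33 lost a call, 7 gained one and 0 reversed. These values include levels and slopes not called at first, which could not lose a call. By slope, calls were lost in 7 of 20 alternatives for Cacna2d2, 7 of 22 for Cacnb2, 6 of 22 for Scn9a and 3 of 22 for Scn2b. With the 5 terms they were lost in 6 of 21 for Cacna1e and 4 of 21 for Scn1a. The other called results lost none. Causes were not tested. No paired analysis was possible because the labels give no replicate numbers and 1 position per hexagon. The replicate numbers used here only count the hexagons within a section. Depth limits the 10 untested members, and in the shallowest library a single count can set a level.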

Other observations

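Levels of some members were also set against SCN cell markers and each other across the 82 hexagons, on log2 values. Hexagons share sections, library sets and libraries of unequal depth, so these are descriptions with no p. For Cacna2d3 and Vip, Pearson's r was 0.58 and Spearman's rho 0.63, and r was 0.412 with section means removed and 0.57 without the shallowest library. For Cacna2d1 and Vip, Pearson's r was -0.0113 and Spearman's rho 0.0261, and r was 0.154 with section means removed and 0.0435 without the shallowest library. Both α2δ genes rose along the dorsal-ventral axis. For Cacna2d1 and Cacna2d3, Pearson's r was 0.0937 and Spearman's rho 0.221, and r was 0.235 with section means removed and 0.247 without the shallowest library. Whether their relations to Vip differ was not tested. For Scn1a and Nms, Pearson's r was -0.595 and Spearman's rho -0.628, and r was -0.534 with section means removed and -0.555 without the shallowest library. For Scn2b and the myelin gene Mbp, Pearson's r was 0.595 and Spearman's rho 0.199, and r was 0.583 with section means removed and 0.117 without the shallowest library, so that relation rests on 1 library in which both were at 0.

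The genes Scn3a, Scn2a, Scn1a, Scn9a and Scn7a lie within 1327.8 kb of chromosome 2 on GRCm38, Scn2a on the plus strand and the others on the minus strand. In that stretch Scn1a (66270778 to 66440840) and Scn9a (66480080 to 66634962) are adjacent, with opposite medial-lateral slopes of 0.47 (SE 0.14) and -0.21 (SE 0.06). For this pair across hexagons, Pearson's r was -0.348 and Spearman's rho -0.326, and r was -0.402 with section means removed and -0.365 without the shallowest library. Scn7a, next in line, had 70 counts over all hexagons.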
